A study of Mus musculus with 6 samples.

Results

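Interferon-stimulated genes and the sensors and factors that switch them on were followed in 393P, a mouse lung cancer cell line, with and without Zeb1. The 46 genes were listed by name, and every probe set whose platform annotation named one of them alone was taken, which gave 74 probe sets for 44 genes among 34945 probe sets with 1 gene symbol. Isg15 was named only together with Gm9706 on a shared probe set, and Ifi44 was not analysed here. Cells that stably carried the empty pcDNA vector (3 arrays) were compared with cells that stably and constitutively expressed Zeb1 from a vector (3 arrays), each array from 1 of 3 parallel cultures in serum-containing medium. Zeb1 is a zinc-finger repressor of epithelial genes. Whether each kind of cell was a pool or a clone, and how many transfections lie behind it, is not stated in the labels, so p-values measure the spread between cultures.

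Signals are log2 MAS5 values, scaled by the authors to the same trimmed mean on each array. Values under log2 4.45 (a linear signal of 21.8) were raised to it and are called the floor, and a fold that rests on the floor or on a group mean below the pooled median of 6.32 is given as "at least". A probe set was tested if it reached its array's median on 3 or more of the 6 arrays. The Zeb1 probe set 1418926_at lay at 4.45, 4.45 and 4.50 in control cells and at 9.71, 9.59 and 9.78 in Zeb1 cells, so the arrays carried the signal their labels state. Of the epithelial markers, Krt8, Krt18 and Krt19 were above log2 13 on all 6 arrays, whereas Epcam and Cdh1 fell (log2 changes of -7.05 and -4.01); in all 5 of 8 epithelial probe sets fell and 0 rose. The 10 probe sets of leukocyte markers summed to linear signals of 961 to 1059 in control cells and 710 to 1020 in Zeb1 cells. The pan-leukocyte gene Ptprc did not exceed 5.43 on any array. Cd68 (7.37 to 7.73) and Csf1r on 1419872_at (7.38 to 7.98), by contrast, lay above the pooled median on all 6 arrays. Of the 5 tested leukocyte probe sets 1 fell and 0 rose. It was Csf1r on 1419873_s_at (log2 change -1.77), while Csf1r was not called on 1419872_at (-0.25) or 1423593_a_at (-0.19).

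Type I interferons bind the receptor pair Ifnar1 and Ifnar2, whose kinases activate Stat2. Stat2 and Irf9 are parts of a complex that binds interferon-stimulated response elements (ISREs) in promoters. Interferon-gamma works mainly through gamma-activated sites (GAS) and through Irf1. Cytosolic sensors of viral RNA and DNA lie upstream, and most of the sensors and factors are themselves interferon-induced, so the pathway feeds back on itself.

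Over the listed genes many more probe sets were higher than lower in Zeb1 cells. Of the 74 probe sets 45 passed the filter, and of these 27 rose, 1 fell and 17 did not pass the threshold (limma, adjusted p under 0.05 over all 20594 tested probe sets). Over all tested probe sets 24.5% rose and 21.6% fell, and 46.1% were called in either direction. In these bulk RNA samples, fewer cells expressing a gene and less of its RNA per cell cannot be told apart. Among the members tested, 21 rose by at least 1 on the log2 scale, a size reached by 8.97% of all tested probe sets, and 0 fell as far, beside 6.17%. The median log2 change of the 45 was 0.95, beside 0.02 over all tested probe sets. Because a gene that is off in control cells passes this filter only if it is high in Zeb1 cells, the counts were also taken without that filter and with a stricter one. The gene list itself was chosen with earlier results of these data known. None of these counts is free of that choice, and they only describe the list. With no filter 29 of all 74 probe sets rose and 2 (Mx1 and Usp18) fell, where 12.7% of all 34945 rose and 10.9% fell (23.6% either way), and the median change was 0.37 beside 0. Among the 35 that reached the median on all 6 arrays 19 rose and 1 fell, beside 25.2% and 23.3% of 16692 (48.5% either way). The 2 groups of arrays did not overlap for 30 tested members with higher and 2 with lower signals in Zeb1 cells, beside 29.2% and 26.2% over all tested probe sets (55.4% together). With 1 probe set per gene, the brightest, 21 of 33 tested genes rose and 1 fell, beside 26.4% and 24.1% of 11893 genes.

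**Figure D1:**
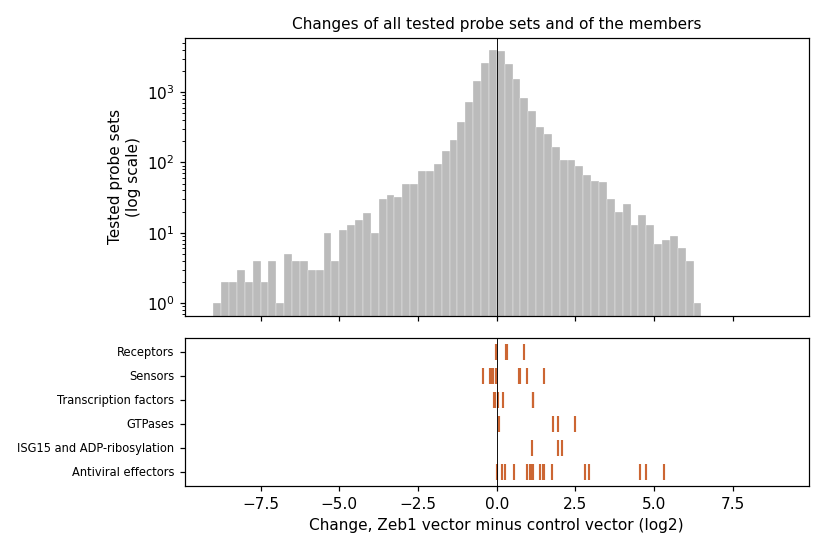
The upper panel counts all 20594 tested probe sets by their log2 change, Zeb1 vector minus control vector, on a logarithmic axis; the lower panel marks each of the 45 tested member probe sets as a line, by role. The members range from -0.44 to 5.32 and have a median of 0.95, beside 0.02 over all tested probe sets.

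By role the counts are given over every probe set, in the fit with no filter, where 12.7% of all probe sets rose and 10.9% fell. Of the 26 probe sets of antiviral effectors 14 rose and 0 fell, with a median log2 change of 1.08. Of the 10 of GTPases 4 rose and 1 fell (median 0.86), and of the 6 in the ISG15 and ADP-ribosylation group 3 rose and 1 fell (median 1.02). Of the 18 of sensors 4 rose and 0 fell (median -0.04), of the 9 of transcription factors 2 rose and 0 fell (median 0.04), and of the 5 of receptors 2 rose and 0 fell (median 0.30). The median over all probe sets was 0. Of all probe sets that passed the filter 24.5% rose. Among the members that passed it, 13 of 17 effectors, 3 of 4 GTPases and 3 of 3 of the ISG15 group rose. So did 4 of 11 sensors, 2 of 6 factors and 2 of 4 receptors. These filtered counts are a description only, since the filter admits some members through their Zeb1 arrays. Differences between these roles were not tested.

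**Figure D2:**
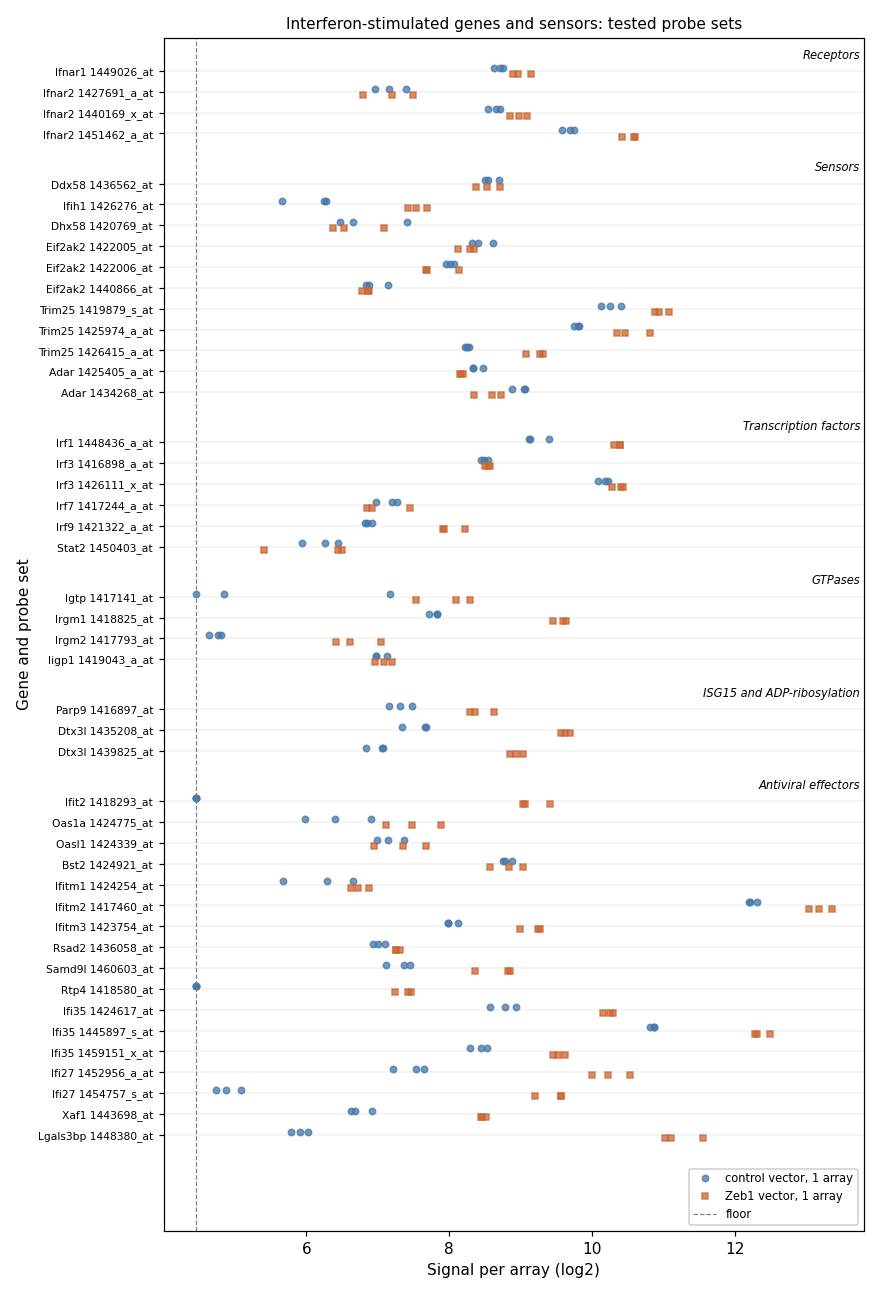
Log2 signal (horizontal axis) of each of the 45 tested member probe sets (rows, labelled by gene and probe set) on the 3 control vector arrays (circles) and the 3 Zeb1 vector arrays (squares), by role; the dashed line is the floor of 4.45. Squares lie to the right of all circles in 30 rows, most clearly for Lgals3bp, Ifit2 and Ifi27.

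Of the receptor chains Ifnar2 rose on its brightest probe set. Ifnar2, the chain that binds interferon with high affinity, is read by 3 tested probe sets. On 1451462_a_at it was at 9.75, 9.69 and 9.58 in control cells and 10.61, 10.59 and 10.42 in Zeb1 cells. The groups did not overlap, and it rose by 0.87 (SE 0.0916, adjusted p = 4.37e-05), or 1.82-fold. On 1440169_x_at the rise was 0.34 (adjusted p = 0.0362), a call lost without any 1 array other than Zeb1 vector replicate 3 (adjusted p = 0.0558 to 0.128). The remaining one, 1427691_a_at, had a change of -0.02 (SE 0.229). An x_at probe set holds probes that may also match other sequences. Ifnar1, the other chain, went from 8.72, 8.63 and 8.76 to 9.15, 8.97 and 8.90. Its groups did not overlap, but the change of 0.30 (SE 0.115) missed the threshold (adjusted p = 0.057); over genes, with 1 probe set each, it passed narrowly (adjusted p = 0.0492). In the RefSeq gene order of GRCm38.p6 these receptor genes lie on chromosome 16 with 1 gene between them.

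Sensors divided by gene. Ifih1, a helicase that senses long double-stranded RNA, had signals of 5.66, 6.28 and 6.25 in control cells and 7.69, 7.54 and 7.43 in Zeb1 cells. Every Zeb1 array was above every control array, and the rise of 1.49 (SE 0.237, adjusted p = 0.000622) was at least 2.81-fold. All control signals of Ifih1 lay below the pooled median of 6.32, and with no filter it had an adjusted p of 0.00984. Ddx58, the related helicase that senses RNA with a triphosphate end, did not separate the groups, with 8.51, 8.70 and 8.54 against 8.53, 8.72 and 8.38. Its change was -0.04 (SE 0.132, adjusted p = 0.841). Dhx58, another helicase of the family, which modulates its relatives, had a change of -0.18 (SE 0.306, adjusted p = 0.665) on its tested probe set and lay at the floor on all 6 arrays on the other 2.

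Trim25, a ubiquitin ligase that activates Ddx58, rose on all 3 of its probe sets, by 0.70 (SE 0.0955, adjusted p = 0.000226), 0.75 (adjusted p = 0.000616) and 0.97 (adjusted p = 9.57e-05). On the brightest, 1419879_s_at, control arrays gave 10.41, 10.25 and 10.13 and Zeb1 arrays 10.88, 10.94 and 11.08, with no overlap. Eif2ak2, the kinase that halts translation when it binds double-stranded RNA, had changes of -0.19, -0.17 and -0.12 on its 3 probe sets (adjusted p of 0.295, 0.428 and 0.675). Zbp1, a sensor of left-handed nucleic acids, was below the filter on both probe sets, at 6.29 or less on every array.

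Adar, the enzyme that edits adenosines in double-stranded RNA and so limits sensing, was the single tested member that fell. On 1434268_at it went from 8.88, 9.07 and 9.05 to 8.60, 8.73 and 8.35, without overlap. The fall was 0.44 on the log2 scale, as a change of -0.44 (SE 0.132, adjusted p = 0.0208), or 1.36-fold. The call was lost without control vector replicate 2 (-0.41, adjusted p = 0.0579), control vector replicate 3 (-0.41, adjusted p = 0.0622) or Zeb1 vector replicate 3 (-0.34, adjusted p = 0.0643), and with no filter (adjusted p = 0.06). A second probe set, 1425405_a_at, had a change of -0.21 (adjusted p = 0.198), also without overlap.

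**Figure D3:**
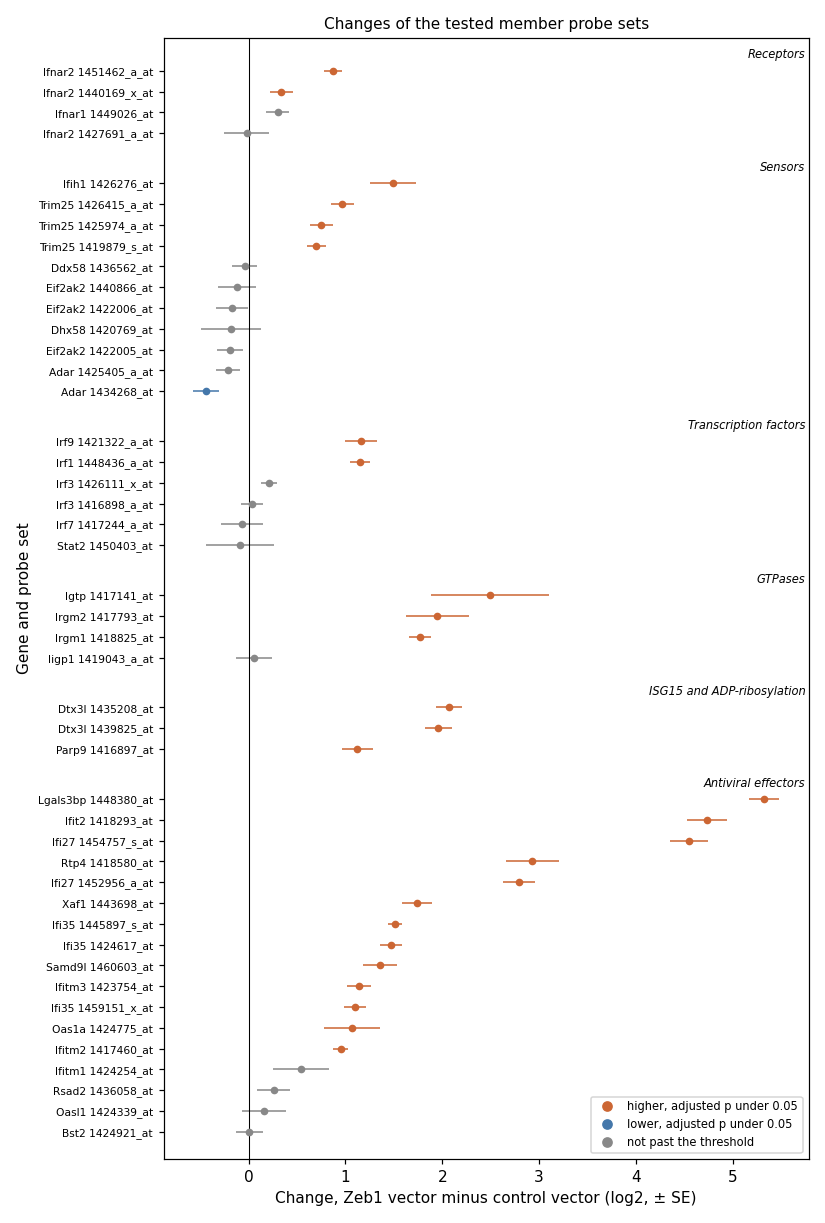
Log2 change (Zeb1 vector minus control vector, horizontal axis) of the 45 tested member probe sets, with bars of 1 moderated SE, by role; orange marks the 27 that rose, blue the 1 that fell and grey the 17 not past the threshold. The largest change is that of Lgals3bp, 5.32, and the sole fall that of Adar, -0.44.

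Of the transcription factors Irf1 and Irf9 rose. Irf1, an activator induced by interferon-gamma and other signals, was at 9.13, 9.40 and 9.12 in control cells and 10.31, 10.39 and 10.40 in Zeb1 cells. It rose by 1.15 (SE 0.103, adjusted p = 1.47e-05), or 2.22-fold, with no overlap. Irf9, the DNA-binding part of the type I interferon complex, was at 6.85, 6.92 and 6.82 against 8.22, 7.93 and 7.92. It rose by 1.16 (SE 0.166, adjusted p = 0.000318), or 2.23-fold, and its groups were also apart.

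The other factors showed no such shift. Stat2, the partner of Irf9, was low and overlapping on 1450403_at (6.26, 5.94 and 6.44 against 6.50, 6.44 and 5.41, a change of -0.09, SE 0.35) and at the floor on all 6 arrays on the other probe set. Irf7, which amplifies interferon production and is itself strongly induced by interferon, gave 7.20, 6.97 and 7.27 against 7.45, 6.92 and 6.85. Its change of -0.07 (SE 0.219) had an adjusted p of 0.817. Irf3, the constitutive factor that sensors activate by phosphorylation, changed by 0.21 (SE 0.0847, adjusted p = 0.0646) on its brightest probe set, 1426111_x_at, and by 0.04 (SE 0.113) on 1416898_a_at.

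Among the GTPases 3 of the 4 listed members of the immunity-related family rose. Irgm1, which guards membranes against attack by the family's effector members, was at 7.83, 7.83 and 7.72 in control cells and 9.59, 9.46 and 9.64 in Zeb1 cells. It rose by 1.77 (SE 0.114, adjusted p = 1.57e-06), or 3.41-fold. Irgm2, a related regulator, went from 4.77, 4.64 and 4.80 to 6.61, 7.04 and 6.41. Its groups were apart and it rose by 1.95 (SE 0.321, adjusted p = 0.000767), at least 3.87-fold, but a floor at the 50th percentile, above its control signals, left a change of 0.36 (adjusted p = 0.127). With no filter Irgm2 had an adjusted p of 0.00254. Igtp, another of these regulators, scattered in control cells (4.45, 7.18 and 4.85) and was at 8.10, 7.54 and 8.29 in Zeb1 cells. Its lowest Zeb1 array was above control vector replicate 2, the highest control array, and it rose by 2.49 (SE 0.607, adjusted p = 0.0076), at least 5.60-fold; the change was 3.33 without control vector replicate 2 and 1.96 without control vector replicate 1, each still called. The higher floor gave 1.37, and in the fit with no filter it was not called (adjusted p = 0.103).

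Iigp1, an effector of the same family that attacks the vacuoles of parasites, did not follow: its signals were 6.97, 6.97 and 7.13 against 7.09, 7.20 and 6.96, a change of 0.06 (SE 0.184, adjusted p = 0.82). Gbp2, a guanylate-binding protein of the other large family, was below the filter on both probe sets. On 1418240_at it went from 4.98, 5.49 and 5.46 to 6.24, 6.42 and 6.66, and on 1435906_x_at from 4.45, 4.45 and 5.10 to 6.04, 6.07 and 6.25, each without overlap. In the fit with no filter both were called higher (adjusted p of 0.0179 and 0.00946). The changes of 1.13 and 1.45 lie at signals near background. Gbp3 overlapped, at 4.54, 5.31 and 4.63 against 5.50, 5.96 and 4.78.

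The dynamin-like antiviral GTPases moved the other way or not at all. Mx1 was at 6.60, 5.98 and 6.04 in control cells and 5.29, 4.45 and 4.50 in Zeb1 cells, below the filter, and was called lower in the fit with no filter (log2 change -1.47, adjusted p = 0.0299). Mx2 was at the floor on 5 of the 6 arrays and reached 4.66 on the other.

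The regulatory GTPases that rose carry the ISRE core in their promoters. In the RefSeq promoter table of GRCm38.p6, which covers 250 bases before to 50 after a gene's start, the ISRE core (GAAA, any 2 bases and GAAA again, on either strand, overlaps counted) occurred in 3.44% of all 32851 promoters, and 36 of the 46 listed genes had an entry. Of those 36 genes 17 held the core (47.2%, beside 3.99% of all 27025 genes). It was no more common with a rise: 41.2% of members with a probe set that rose held it, and 45.5% of tested members without one. The stretches upstream of the start are shown for the 3 GTPases that rose, with the matched bases in capitals and 30 bases on each side where the start allows. They lie at chr11:58199492-58199555 on the plus strand (Igtp), chr11:58214883-58214952 on the plus strand (Irgm2) and chr11:48871421-48871480 on the minus strand (Irgm1).
Igtp: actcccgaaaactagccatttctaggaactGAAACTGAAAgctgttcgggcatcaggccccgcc
Irgm2: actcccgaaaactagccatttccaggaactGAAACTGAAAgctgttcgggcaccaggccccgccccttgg
Irgm1: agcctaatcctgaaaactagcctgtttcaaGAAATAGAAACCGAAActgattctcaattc
Igtp and Irgm2 are next to each other in the gene order, and 62 of the 64 bases compared in these stretches were identical. Irgm1 held 2 overlapping matches. Other members with a probe set that rose held no ISRE match in this table: Lgals3bp, Ifit2, Dtx3l, Ifi35, Xaf1, Samd9l, Irf1, Irf9, Trim25 and Ifnar2.

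In the ISG15 and ADP-ribosylation group, Dtx3l and Parp9 rose. They encode a ubiquitin ligase and the ADP-ribosyltransferase-like protein that works with it, and are neighbours on chromosome 16. Dtx3l on 1435208_at was at 7.68, 7.34 and 7.67 in control cells and 9.69, 9.57 and 9.62 in Zeb1 cells. It rose by 2.07 (SE 0.133, adjusted p = 1.55e-06), or 4.19-fold. Its other probe set rose by 1.96 (adjusted p = 3.7e-06), or 3.88-fold. Parp9 was at 7.31, 7.16 and 7.48 against 8.30, 8.36 and 8.63 and rose by 1.12 (SE 0.16, adjusted p = 0.000319), or 2.17-fold. On none of these probe sets did the groups overlap.

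Parp14, the next gene on the other side of Dtx3l and an ADP-ribosyltransferase, was low and below the filter: 4.53, 4.45 and 5.51 against 5.23, 6.12 and 5.90 on 1451564_at, with overlap, and the floor on all 6 arrays on its other probe set. Usp18, the protease that removes Isg15 from proteins and dampens receptor signalling, had lower signals in Zeb1 cells, at 6.64, 6.93 and 6.35 against 5.33, 5.89 and 5.48. It was below the filter, its groups did not overlap, and it was called lower in the fit with no filter (log2 change -1.07, adjusted p = 0.0332). On the probe set shared by Isg15, the ubiquitin-like modifier itself, and Gm9706, signals were 6.85, 6.59 and 7.32 against 6.92, 6.54 and 6.59, with overlap.

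The largest changes were among the effectors. Lgals3bp, a secreted galectin-binding glycoprotein, was at 6.03, 5.91 and 5.79 in control cells and 11.03, 11.11 and 11.56 in Zeb1 cells. It rose by 5.32 (SE 0.158, adjusted p = 9.93e-09, or 0.000123 with no filter), at least 40.1-fold. Ifi27, a small membrane protein of organelles, rose by 2.79 (SE 0.167, adjusted p = 9.66e-07), or 6.91-fold, on 1452956_a_at, from 7.22, 7.54 and 7.65 to 10.00, 10.23 and 10.54. On 1454757_s_at it went from 4.73, 5.08 and 4.87 to 9.20, 9.57 and 9.57, a rise of 4.55 (SE 0.198), at least 23.5-fold (3.12 under the 50th-percentile floor). With no filter this probe set had an adjusted p of 0.000186. The probe sets thus shared the direction and differed in size.

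Ifit2, which binds RNA and blocks translation, sat at the floor in every control culture and at 9.42, 9.03 and 9.07 in Zeb1 cells. The rise was at least 26.5-fold (log2 change 4.73, SE 0.207, adjusted p = 1.19e-07), and the log2 change was 2.85 under the 50th-percentile floor. Ifit2 passed the filter through its Zeb1 arrays alone (adjusted p = 0.000137 with no filter). Its neighbour Ifit3, which acts in complexes with other Ifit proteins, was below the filter and likewise at the floor in every control culture. In Zeb1 cells it was at 6.47, 6.35 and 6.90, at least 4.37-fold higher (adjusted p = 0.00127 with no filter). Ifit1, which binds the ends of viral RNA, went from the floor in every control culture to 5.94, 5.07 and 6.03 (adjusted p = 0.0368 with no filter). Every Zeb1 array of the 3 genes thus lay above every control array.

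Rtp4, a transporter-like protein induced by interferon, also sat at the floor in every control culture, and was at 7.24, 7.42 and 7.47 in Zeb1 cells, at least 7.63-fold higher (log2 change 2.93, SE 0.276, adjusted p = 2.05e-05). Its log2 change was 1.05 under the 50th-percentile floor and 4.95 on unfloored values, and its other probe set was at the floor on all 6 arrays. Rtp4 passed the filter through its Zeb1 arrays alone (adjusted p = 0.000155 with no filter). Xaf1, a zinc-finger protein that promotes cell death, was at 6.68, 6.62 and 6.92 against 8.45, 8.52 and 8.46 and rose by 1.74 (SE 0.156, adjusted p = 1.5e-05), or 3.33-fold, while its other probe set lay below the filter with overlapping groups. Samd9l, an inhibitor of translation, rose by 1.36 (SE 0.176, adjusted p = 0.000167), or 2.57-fold, from 7.12, 7.46 and 7.37 to 8.83, 8.36 and 8.85. For Rtp4, Xaf1 and Samd9l the groups of arrays were apart on the tested probe sets.

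Ifi35, a leucine-zipper protein that partners with Nmi, rose on all 3 of its probe sets, by 1.47, 1.51 and 1.10. On the brightest, 1445897_s_at, control arrays gave 10.87, 10.87 and 10.82 and Zeb1 arrays 12.31, 12.49 and 12.29, a 2.84-fold rise (SE 0.0728 on the log2 scale, adjusted p = 2.21e-07). The spread within each group was small beside that difference.

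The Ifitm proteins sit in membranes and hinder the entry of viruses, and their genes are next to each other on chromosome 7. Ifitm2 was at 12.32, 12.20 and 12.22 against 13.04, 13.18 and 13.36, and rose by 0.95 (SE 0.081, adjusted p = 1.08e-05), or 1.93-fold. Ifitm3 was at 8.12, 7.98 and 7.99 against 9.24, 9.27 and 8.99 and rose by 1.14 (SE 0.126, adjusted p = 5.83e-05), or 2.20-fold. Ifitm1, between them, overlapped at 5.67, 6.29 and 6.66 against 6.63, 6.88 and 6.73, and its change of 0.54 (SE 0.291, adjusted p = 0.16) missed the threshold.

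Of the oligoadenylate synthetase family and its relatives, Oas1a was called higher. Oas1a, which makes the oligoadenylates that activate an RNA-degrading enzyme, was at 6.40, 6.90 and 5.98 in control cells and 7.12, 7.89 and 7.48 in Zeb1 cells. It rose by 1.07 (SE 0.29, adjusted p = 0.0128), or 2.10-fold, a call lost without Zeb1 vector replicate 2 (0.87, adjusted p = 0.058) and with no filter (adjusted p = 0.0884). Oasl1, a relative that dampens translation of Irf7, gave 7.14, 6.99 and 7.37 against 7.68, 7.36 and 6.95, a change of 0.16 (SE 0.226). Its neighbour Oasl2 was at the floor on 5 of the 6 arrays.

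Other effectors showed little or no signal change. Bst2, which tethers budding virus to the cell surface, was at 8.88, 8.76 and 8.78 against 8.84, 8.57 and 9.03, and its change was 0.01 (SE 0.137, adjusted p = 0.972). Rsad2, an enzyme that makes a chain-terminating nucleotide, changed by 0.26 (SE 0.173, adjusted p = 0.247) on its tested probe set, from 6.93, 7.11 and 7.01 to 7.26, 7.26 and 7.32. Its groups did not overlap there, yet on 1421008_at, below the filter, no control array was under 5.97 and no Zeb1 array above 5.97. The third probe set overlapped. The neighbouring gene Cmpk2, a nucleotide kinase, did not exceed 5.46 on any array.

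The ISRE core was not limited to effectors that rose, since Bst2 also held it. The stretches of Oas1a (chr5:120907526-120907575, minus strand), called higher, of Ifit3 (chr19:34583343-34583446, plus strand) and Ifit1 (chr19:34640755-34640843, plus strand), both below the filter, and of Bst2 (chr8:71537557-71537632, minus strand), with no detected change, each hold 2 matches, in capitals; runs that begin with TTTC are the core read on the other strand.
Oas1a: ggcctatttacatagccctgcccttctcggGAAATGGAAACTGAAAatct
Ifit3: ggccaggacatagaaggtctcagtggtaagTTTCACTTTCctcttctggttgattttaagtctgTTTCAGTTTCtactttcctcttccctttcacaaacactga
Ifit1: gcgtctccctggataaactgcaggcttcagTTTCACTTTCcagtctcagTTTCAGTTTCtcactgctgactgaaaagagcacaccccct
Bst2: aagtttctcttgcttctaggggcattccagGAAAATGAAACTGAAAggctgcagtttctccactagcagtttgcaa
Over the members with a promoter entry, 7 of 17 genes with a probe set that rose held the core, beside 5 of 11 tested genes without one and 5 of 8 not tested. Those not tested include Ifit1, Ifit3 and Gbp2, which held the core and were called higher in the fit with no filter. The GAS letters TTCNNNGAA occurred in 8 of the 17, 4 of the 11 and 0 of the 8, beside 9.55% of all genes. A match is a description of these letters and not evidence of binding, and some matches lie after the start.

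**Figure D4:**
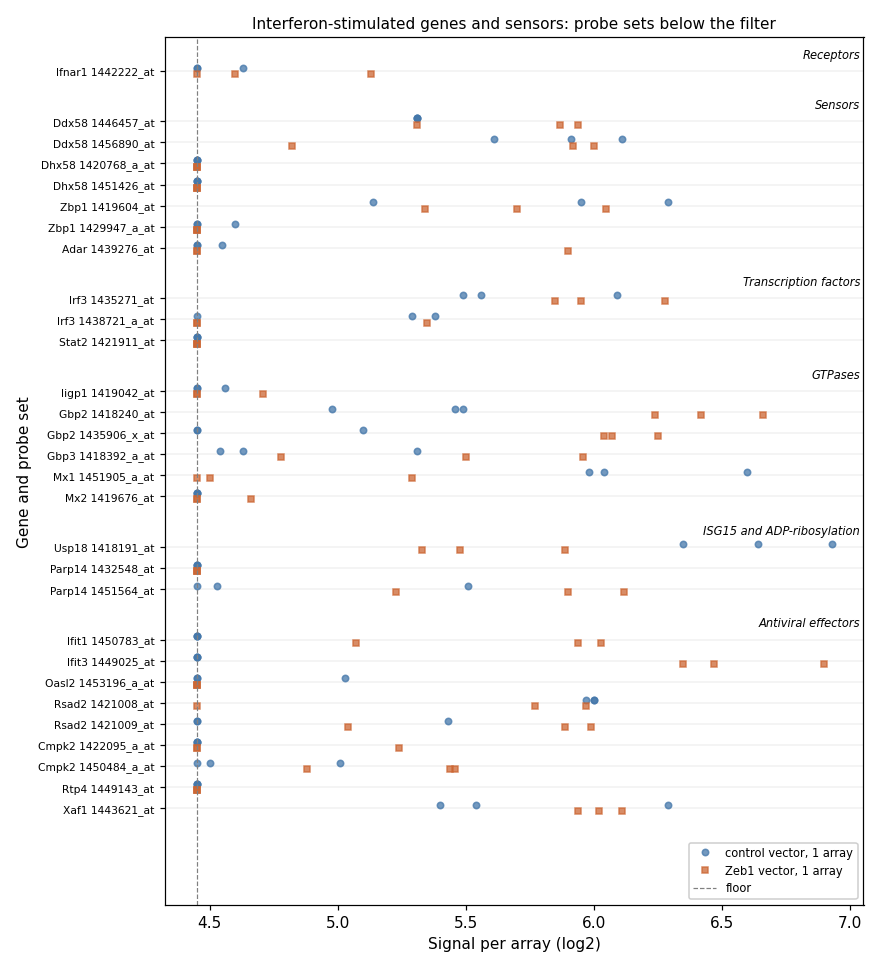
Log2 signal (horizontal axis) of the 29 member probe sets below the filter (rows, labelled by gene and probe set) on the 3 control vector arrays (circles) and 3 Zeb1 vector arrays (squares), by role; the dashed line is the floor of 4.45. Ifit1, Ifit3 and both Gbp2 probe sets have all squares to the right of the circles. Mx1, Usp18 and, narrowly, Rsad2 on 1421008_at have all squares to the left, and 5 rows lie wholly at the floor.

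Other genes of the pathway were counted by list. Of 31 tested probe sets for interferon ligands, receptors and JAK-STAT components 10 rose (32.3%, beside 24.5% of all tested) and 1 fell (3.23%, beside 21.6%). With no filter 4 of 38 rose and 1 fell, beside 12.7% and 10.9% of all probe sets. The phosphatase gene Ptpn2 rose on 2 of its 4 probe sets. On 1425198_at it rose at least 3.16-fold (log2 change 1.66, adjusted p = 0.000597, or 0.00985 with no filter), with a log2 change of 1.08 under the 50th-percentile floor. On 1425197_at it rose by 0.75, a call lost with no filter (adjusted p = 0.103). The brightest Ptpn2 probe set had a change of 0.14 (adjusted p = 0.0941). The kinase Jak2 rose by 0.78 (adjusted p = 0.000302) on its brightest probe set and by 0.91 (adjusted p = 2.63e-05) on the other. The repressor Irf2 rose by 0.76 (adjusted p = 0.0116), a call lost with no filter (adjusted p = 0.0801). The factor Irf5 fell, with a change of -0.61 (adjusted p = 0.00193). The ligands were chosen for mention after their values were seen: Ifnb1 was at 6.25, 6.55 and 6.54 against 6.38, 6.40 and 6.61, close to the pooled median, and Ifna4 and Ifng were at the floor on all 6 arrays.

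Among 22 tested probe sets for sensing adaptors and kinases 5 rose (22.7%, near the 24.5% of all tested) and 7 fell (31.8%, beside 21.6%). With no filter 5 of 27 rose and 6 fell, beside 12.7% and 10.9% of all probe sets. The adaptor Sting1 rose by 0.77 (adjusted p = 0.000867) on its brightest probe set and by 1.03 (adjusted p = 5.35e-05) on the other. The ubiquitin ligase Rnf135 rose by 0.98 (adjusted p = 0.00187) and the DNA sensor Cgas by 0.76 (adjusted p = 0.00401). The kinase Ikbke had a change of -1.59 (adjusted p = 4.22e-05), and the RNA receptor Tlr3 fell on both probe sets, with changes of -1.42 (adjusted p = 2.73e-05) and -1.01. Traf6, a ligase of the same cascade, fell on 2 of 3 tested probe sets, at least 2.93-fold on 1 (log2 change -1.55, adjusted p = 0.00236; -0.56 under the 50th-percentile floor) and with a change of -0.79 on another, and had a change of -0.10 on its brightest.

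Of 27 tested probe sets for other interferon-stimulated genes 9 rose, 1 fell and 17 did not pass the threshold, with a median log2 change of 0.38. The GTPase Ifi47 rose at least 5.23-fold (log2 change 2.39, adjusted p = 0.000208; 0.90 under the 50th-percentile floor). The ISG15-conjugating enzyme Ube2l6 rose at least 3.52-fold (log2 change 1.82, adjusted p = 0.00035; 1.22 under that floor) and Slfn2, a regulator of cell growth, by 1.57 (adjusted p = 0.000115). Ifi47 and Ube2l6 lay below the pooled median on every control array. With no filter they had adjusted p of 0.00454 and 0.00845. The exonuclease Isg20 fell, with a change of -0.63 (adjusted p = 0.00526), a call lost with no filter (adjusted p = 0.0599). The shares of this list that rose and fell were 33.3% and 3.7%, beside 24.5% and 21.6% over all tested probe sets. With no filter 9 of 51 rose and 0 fell, beside 12.7% and 10.9% of all probe sets, and the median log2 change was 0.21.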

How the data were processed

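RNA of 6 cultures was hybridised to Affymetrix arrays. The deposited table holds log2 signals of 45101 probe sets; MAS5 is named in the submitters' processing notes, with no version, and per the values each array was scaled by the authors to a 2% trimmed linear mean of 500. The 2 missing values, in no member, were set to the floor. Detection calls were not used here.

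Control probe sets (64), those with several symbols (932) and those without a symbol here (9160) were left out. Values were floored at the 25th percentile of all arrays pooled; 24% to 26.4% of probe sets lay there on an array. Zeb1 vector was compared with control vector in limma 3.58.1 (R 4.3.3; lmFit, eBayes with an intensity trend), adjusted by Benjamini-Hochberg over all tested probe sets. Errors are moderated SEs (median 0.147), and the number of arrays limits the precision. On simulated arrays with the same 20594 probe sets, 93 of 100 changes of 2 and 62 of 100 changes of 1 on the log2 scale were called, and 8 of 20394 unchanged probe sets. The changes were placed in probe sets with mean signals well above the floor. Far fewer were changed than the 46.1% called in the data, so these rates do not carry over to the data or to members at the floor. Between groups, r across tested probe sets was 0.867 to 0.873, and within groups 0.979 to 0.984; probe sets are not independent replicates.

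All members are named, grouped by role. Of each further pathway list, up to 3 called genes with the largest changes in each direction are named. Members and lists were chosen with earlier results of these data known. Promoters come from RefSeq (GRCm38.p6).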

Additional observations from a re-analysis of the deposited data

How the results depend on the processing

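Of the 28 member probe sets called, 23 kept their call under every alternative that could be run on them: no floor or the 50th percentile as floor, no filter or a stricter one, quantile normalization or median centring, no intensity trend, the replicate number as a block, and each array left out in turn. The other 5 were those of Ifnar2 (1440169_x_at), Adar, Igtp, Irgm2 and Oas1a; the first also lost its call with quantile normalization (adjusted p = 0.0611) and median centring (adjusted p = 0.225). Rsad2 was called with no intensity trend (0.26, adjusted p = 0.0493). No called change turned its sign. With an array left out, 25 to 27 member probe sets rose and 0 to 1 fell, beside 4309 to 5004 and 3913 to 4213 of all 20594. For genes these were 19 to 21 and 0 to 1, beside 2756 to 3136 and 2600 to 2709 of all 11893. With no filter 2 fell, as probe sets or genes, beside 3818 of all 34945 probe sets and 2550 of all 18193 genes. Under the stricter filter, where fewer genes are tested, 13 of 24 member genes rose and 1 fell, beside 2739 and 2560 of all 9898 tested genes. Same-numbered replicates did not deviate together (r of 0.0173, 0.0138 and -0.039), so no pairing by number was seen. These values cannot show whether same-numbered cultures were handled together. With the replicate block 27 member probe sets rose and 1 fell, and 9377 of all probe sets were called. Median centring moved the median change over all tested probe sets from 0.02 to -0.06. Signals below the pooled median limit what can be said of Ifit1, Ifit3, Gbp2, Mx1 and Usp18.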
